A study of Mus musculus with 2 samples.

Results

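Hnf4a ChIL-seq summits were examined at 10 genes of oxygen sensing and vascular endothelial growth factor (VEGF) signalling: the hydroxylase genes Egln1, Egln2, Egln3 and Hif1an, the hypoxia-inducible factor (HIF) subunit genes Hif1a, Epas1 and Hif3a, the ubiquitin ligase gene Vhl, the growth factor gene Vegfa and its receptor gene Flt1. They are 10 of 21631 protein-coding genes on chromosomes 1 to 19 and X. The genes were chosen by earlier results on these same lists, in which high scores stood out beside Egln1 and inside Flt1, so their counts and scores are descriptions and no test was run on them. A summit belonged to a gene when it lay inside the gene or within 50 kb of its ends, and a summit of each replicate no more than 100 bp apart made a shared pair.

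The samples were 2 replicate libraries of iHepCs, hepatocyte-like cells made from C57BL/6J mouse embryonic fibroblasts (genotype WT, labelled tissue embryo and labelled cell type fibroblast) by retroviral expression of Foxa2 and Hnf4a. ChIL-seq marks DNA near an antibody-bound protein with a transposase and transcribes the tagged DNA in situ. The protein mapped here is one that the retrovirus also supplied, both libraries carry the same lot number of cells in their peak names, and no uninfected or control libraries were analysed here. Oxygen was not varied, and the labels give no oxygen tension.

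Cells sense oxygen through prolyl hydroxylases (the EGLN proteins), which modify HIF alpha subunits when oxygen is plentiful so that VHL, the substrate receptor of a ubiquitin ligase, sends them for degradation. When oxygen falls, HIF alpha persists, pairs with ARNT and activates genes of glycolysis, red cell production and vessel growth, among them Vegfa. In liver and kidney, HNF4 is known as a partner of HIF at the enhancer of the erythropoietin gene Epo.

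Replicate 1 held 21283 summits and replicate 2 held 24097, of which 9193 in each were paired. The score of a summit is the authors' −log10 q-value, whose median was 7.32 for replicate 1 and 6.67 for replicate 2. The lists carry no read counts, so depth is unknown. As peak lists hold no expression, the cell type could not be checked by marker levels. Shared pairs lay within 50 kb of 6 of 8 hepatocyte marker genes, 3 of 8 endothelial cell marker genes and 1 of 8 fibroblast marker genes, beside 48.4% of all protein-coding genes. Within 10 kb the counts were 3, 2 and 1, beside 26.3% of all genes, and they name no cell type.

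Of the 10 genes, 7 had a shared pair inside the gene or within 50 kb, against 48.4% of all protein-coding genes. The 3 without one were Egln3, Hif1an and Vegfa. Replicate 1 placed a summit in the window of 9 of the 10 genes, against 71% of all genes. Replicate 2 did so for 9, against 74.3%. Hif1an was the gene without a summit in either list. The windows of the 10 genes held 24 summits of replicate 1 and 36 of replicate 2, which formed 15 shared pairs. Pairing took in 62.5% of the replicate 1 summits (95% exact binomial interval 40.6 to 81.2) and 41.7% of the replicate 2 summits (25.5 to 59.2), beside 43.2% and 38.15% over the whole lists. These intervals cover counting error only and take the summits as independent draws. Because the genes were chosen from these same lists, the intervals are no test against the whole-list shares. The median over the 10 genes was 1.5 shared pairs, and over all genes it was 0. The 10 genes had a median length of 28164.5 bp, against 17329 bp over all genes, so their windows were wider. Per 100 kb of window, the mean was 1.13 shared pairs for the 10 genes and 0.606 for all genes.

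**Figure D1:**
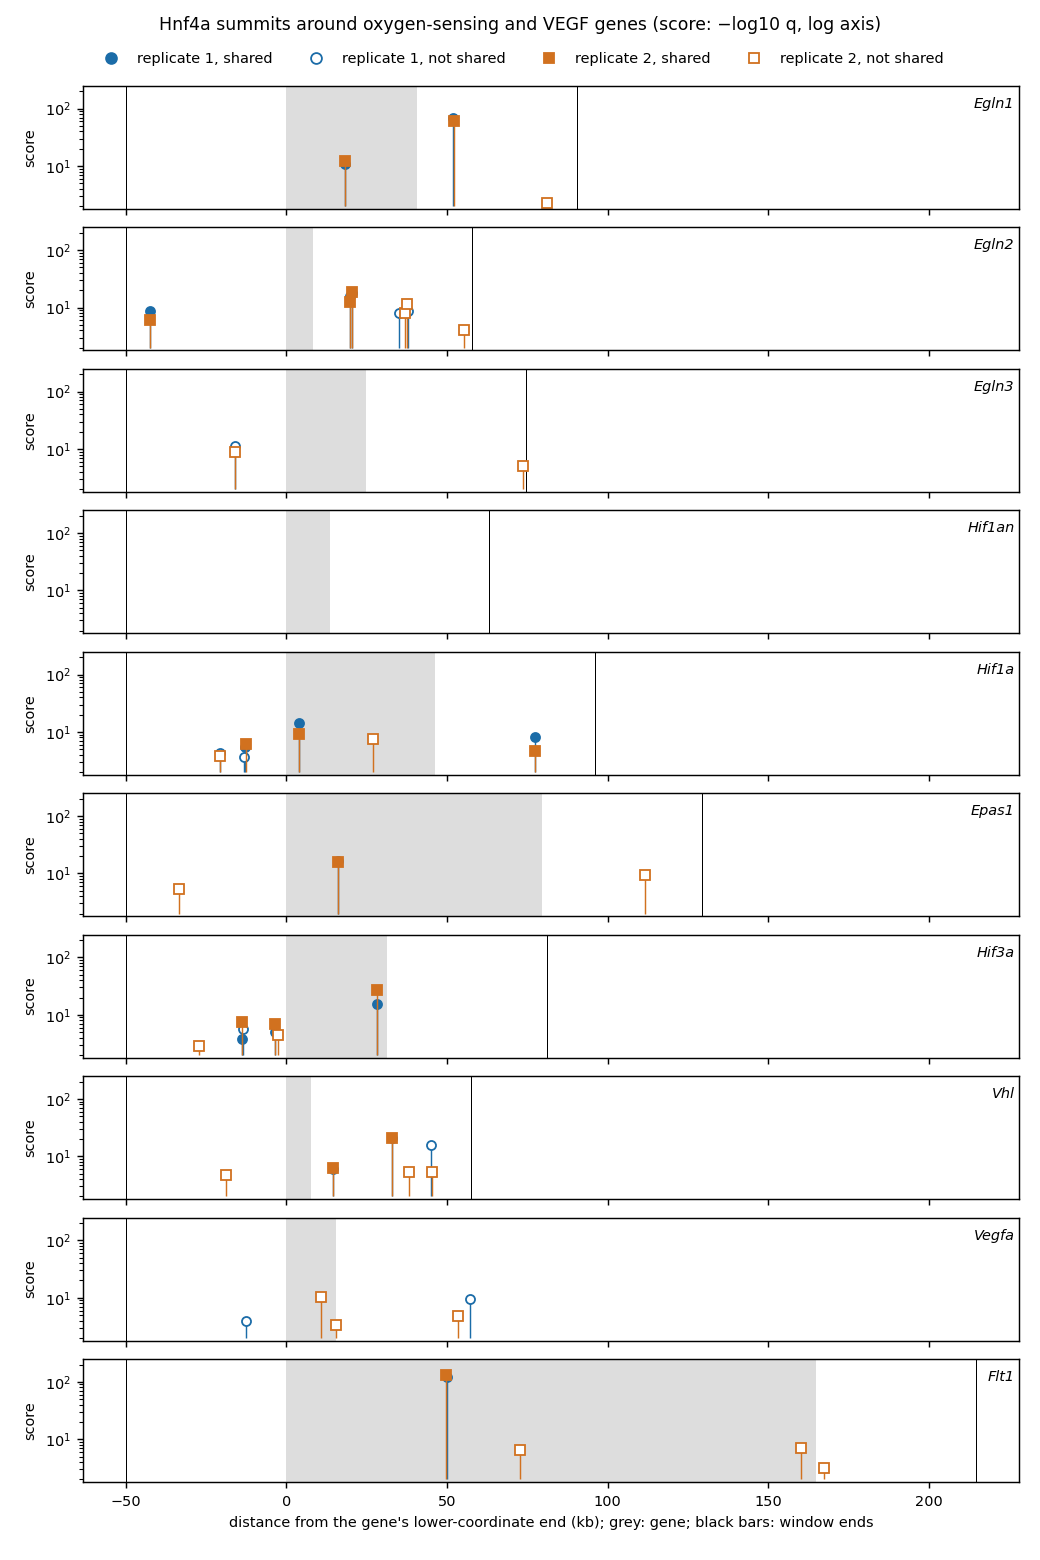
Summits around each of the 10 genes. The x axis is the distance in kb from the gene's lower-coordinate end, grey marks the gene and black lines the ends of the 50 kb windows, and the y axis is the score (−log10 q, log axis). Circles are replicate 1 and squares replicate 2, filled where shared. The highest symbols are the pair inside Flt1 and the pair outside Egln1, and the Hif1an window is empty.

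The hydroxylase genes differed widely in what lay around them. Egln1 encodes the main prolyl hydroxylase that sets HIF alpha levels, and its strongest pair lay upstream, on the side of its start site. That pair had summits at 124960595 (replicate 1) and 124960604 (replicate 2) on chromosome 8 in mm10, 11341 and 11350 bp beyond the gene's 5′ end. It scored 68.7 in replicate 1 and 62.1 in replicate 2, and ranked 29 among the replicate 1 summits and 45 among those of replicate 2. Both summits were only 9 bp apart, the closest of the 15 pairs, and Egln1 was the nearest protein-coding gene. A second pair lay inside Egln1, 22447 and 22506 bp downstream of its start, with the lower scores of 10.7 in replicate 1 and 12.4 in replicate 2. The only unshared summit in this window scored 2.25, in replicate 2, close to the lowest score of that list.

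Egln2 encodes another prolyl hydroxylase and sits among 7 other protein-coding genes within 50 kb. It had 3 pairs, none of them inside the gene and none nearest to it. The strongest scored 17.7 in replicate 1 and 18.6 in replicate 2, at 27179002 and 27179027 on chromosome 7. It lay 12200 and 12225 bp from Egln2 but 119 and 144 bp before the start of Rab4b, a small GTPase gene of endosome recycling. A further pair inside Rab4b, 11771 and 11795 bp from Egln2, scored 15.7 in replicate 1 and 12.3 in replicate 2. The remaining pair, 42439 and 42401 bp away, was nearest to Cyp2f2, a cytochrome P450 gene (8.81 and 5.97).

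The 250 bases before the Rab4b start are shown because they hold both summits of the strongest pair in the Egln2 window (RefSeq, GRCm38.p6, chr7:27178884-27179133, minus strand, written 5′ to 3′ along the gene). Capitals mark the hypoxia response core GCGTG or its reverse complement. This core occurred in 28.3% of the windows of 250 bases before all listed starts.

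Rab4b promoter: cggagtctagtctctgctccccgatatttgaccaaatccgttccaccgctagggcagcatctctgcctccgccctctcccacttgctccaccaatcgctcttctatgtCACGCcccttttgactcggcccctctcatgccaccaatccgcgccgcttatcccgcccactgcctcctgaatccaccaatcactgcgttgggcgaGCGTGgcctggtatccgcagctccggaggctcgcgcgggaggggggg

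Egln3, a hydroxylase gene known as a HIF target, had no other protein-coding gene in its window and no shared pair. Its nearest approach was a summit of 11.5 in replicate 1 and one of 8.74 in replicate 2, 16100 and 15967 bp from the gene on the side of its 3′ end. These stood 133 bp apart, just past the 100 bp limit, and with a limit of 200 bp the number of genes with a shared pair was 8. A further summit of replicate 2 lay 48635 bp away and scored 5.09. Hif1an, which encodes the asparagine hydroxylase that blocks HIF from its coactivators, had no summit of either replicate within 50 kb.

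All 3 HIF alpha genes had 1 shared pair inside the gene, as did 13.7% of all protein-coding genes and 28.6% of those at least as long as Hif3a, the shortest of the 3. Epas1 encodes HIF-2 alpha, the form linked to Epo in liver, and its pair was the most even of those inside genes in both score and place. The summits lay at 86769902 (replicate 1) and 86769883 (replicate 2) on chromosome 17 and scored 16.4 in replicate 1 and 15.7 in replicate 2. No other protein-coding gene reached into the Epas1 window. Its other summits were both from replicate 2, at 33495 bp beyond the lower-coordinate end (5.29) and 31958 bp beyond the higher-coordinate end (9.24).

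Hif1a encodes HIF-1 alpha and had 3 pairs. The pair inside the gene span lay 2525 and 2603 bp before the start site listed for its promoter, since the annotated gene begins earlier than that start. It scored 14.4 in replicate 1 and 9.04 in replicate 2, and its summits were 78 bp apart, the widest of the 15 pairs. An upstream pair, 12749 and 12673 bp beyond the gene's end, scored 5.56 in replicate 1 and 6.09 in replicate 2. The last pair lay 31158 and 31139 bp past the other end, inside Snapc1, which encodes a subunit of the snRNA-activating complex (8.27 and 4.61). Replicate 2 alone also had a summit inside Hif1a, 20409 bp downstream of the start, with a score of 7.53.

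Hif3a encodes the least studied HIF alpha, some isoforms of which restrain the other forms. Its pair inside the gene lay 3353 and 3315 bp downstream of the start, at 17059074 and 17059112 on chromosome 7. It scored 15.5 in replicate 1 and 27.4 in replicate 2, a log2 ratio of 0.82 for replicate 2 over replicate 1, and was the strongest pair at the HIF alpha genes by mean score. The other 2 pairs in the window lay inside Ppp5c, a protein phosphatase gene, 3644 and 3574 bp and 13786 and 13716 bp from Hif3a. They scored 5.05 and 3.83 in replicate 1 and 6.81 and 7.45 in replicate 2, below the median of all shared pairs.

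Vhl had 2 pairs, both nearer to Irak2, a kinase gene of interleukin-1 receptor signalling, than to Vhl. The stronger lay inside Irak2, 25227 and 25247 bp from Vhl, and scored 21.0 in replicate 1 and 21.2 in replicate 2. The other fell at the start of Irak2, 6862 and 6799 bp from Vhl, and scored 6.04 in replicate 1 and 6.18 in replicate 2. A much stronger pair inside Irak2 lay just outside the Vhl window, 58870 and 58919 bp away, with scores of 59.3 in replicate 1 and 45.3 in replicate 2. No summit of either replicate lay inside Vhl or in its promoter.

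The bases before the Irak2 start are shown because a summit of each replicate straddled that start, 29 bases after it in replicate 1 and 34 bases before it in replicate 2 (RefSeq, GRCm38.p6, chr6:113638217-113638466, plus strand). Capitals mark GCGTG.

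Irak2 promoter: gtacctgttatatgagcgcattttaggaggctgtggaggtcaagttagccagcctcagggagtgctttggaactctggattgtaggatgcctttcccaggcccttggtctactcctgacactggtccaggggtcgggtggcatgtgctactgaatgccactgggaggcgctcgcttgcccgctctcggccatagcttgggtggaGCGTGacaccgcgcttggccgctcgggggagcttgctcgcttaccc

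Of the VEGF genes, Vegfa, the main growth factor of blood vessels, had no shared pair, although 2 summits of replicate 1 and 3 of replicate 2 lay in its window. Inside the gene, replicate 2 alone had summits of 10.3 and 3.36. The weaker one lay 40 bases past the start site, in the promoter window from 250 bases before to 50 after a start, where 6.45% of all listed promoters held a summit of replicate 2. The replicate 1 summits scored 3.91, at 12532 bp from the gene, and 9.53, at 41633 bp. The replicate 1 summit nearest to either of the replicate 2 summits inside Vegfa lay 23186 bp from it.

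The 250 bases before the Vegfa start are shown because theirs was the only matched promoter window of the 10 genes with a summit in it (RefSeq, GRCm38.p6, chr17:46032378-46032627, minus strand). That summit, of replicate 2 alone, lay 40 bases past the start and so outside the bases shown. None of the 5 motifs searched was found in these letters, so there are no capitals.

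Vegfa promoter: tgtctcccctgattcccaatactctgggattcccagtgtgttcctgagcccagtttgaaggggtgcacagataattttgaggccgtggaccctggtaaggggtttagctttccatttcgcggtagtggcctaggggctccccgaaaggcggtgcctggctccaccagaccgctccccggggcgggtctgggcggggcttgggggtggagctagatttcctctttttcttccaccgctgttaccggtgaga

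Flt1 encodes VEGF receptor 1, best known from endothelial cells. It held the highest-scoring pair of the 10 genes, deep in the gene at 147611448 (replicate 1) and 147611418 (replicate 2) on chromosome 5, 114563 and 114593 bp downstream of the start. The pair scored 120 in replicate 1 and 131 in replicate 2, rank 13 and 14 of all summits. It was thus 1 of 15 pairs over 100 in both replicates. Such scores can come from sequence present in many copies, and copy number was not tested here because no genome sequence was used. The other 3 summits in the window were all from replicate 2 and scored 3.12 to 7.14, with the nearest to the start 3065 bp before it. Without Flt1 the median of the mean scores over the other 14 pairs was 11.6, against 11.7 with it.

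**Figure D2:**
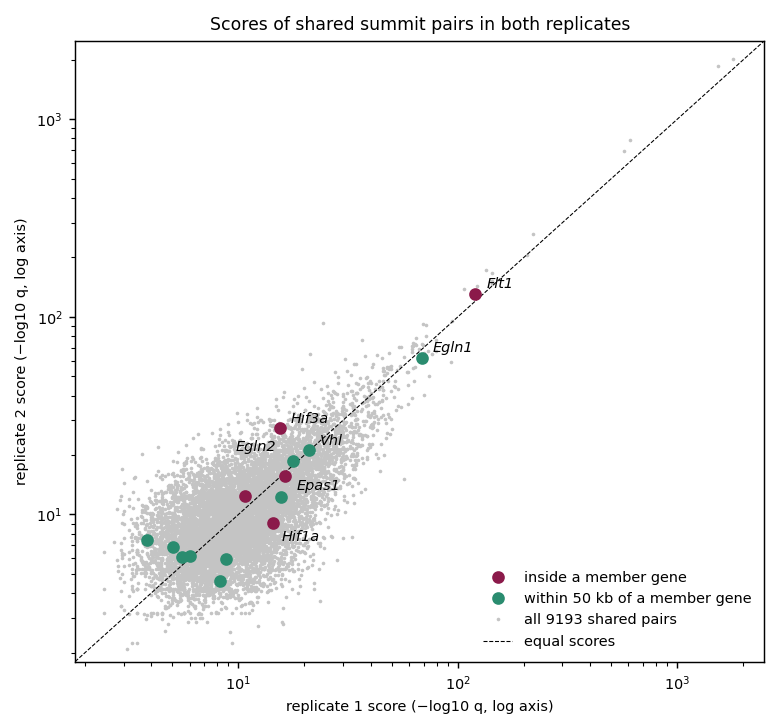
Scores of the shared pairs in replicate 1 (x axis) and replicate 2 (y axis), as −log10 q on log axes. Large points are the 15 pairs at the 10 genes, with the best pair of each gene named, and grey points are all 9193 pairs. Flt1 and Egln1 stand far up the line of equal scores, and the other 13 lie within the main cloud.

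The libraries differed in score at these pairs in both directions. On the log2 scale, the difference replicate 2 minus replicate 1 had a median of 0.03 and ran from −0.84, at the Snapc1 pair, to 0.96, at the weaker Ppp5c pair. Over all pairs the median was −0.04. Replicate 2 scored higher in 9 pairs and lower in 6. The size of the difference, whatever its sign, had a median of 0.22, against 0.43 over all pairs. The mean score of a pair had a median of 11.7, against 9.89 over all 9193 pairs, and 9 of the 15 lay above that value. The 5 pairs inside genes all did so, with a median of 16.0, while of the 10 pairs outside genes 4 did, with a median of 6.92. The same split was not made over all pairs. The pair inside Flt1 and the pair outside Egln1 were among the high scores that had guided the choice of genes. Summits without a counterpart numbered 9 in replicate 1, with a median score of 8.04, and 21 in replicate 2, with a median of 5.23. Pairs were a median of 38 bp apart, against 32 bp over all pairs. Next to the 50 kb limit, the summit of replicate 2 at 48635 bp from Egln3 (5.09) was the last one inside, and a summit of replicate 1 at 50290 bp from Hif3a (6.83) was the first one outside.

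Pairs inside genes were found at Flt1, Epas1, Hif1a, Egln1 and Hif3a, 1 in each. The summits of the Egln1 and Hif1a pairs stood 59 and 78 bp apart, so that a limit of 50 bp left 3 genes with a pair inside. The share of all genes was not computed at 50 bp. The 5 genes with a pair at 100 bp are also the longest of the 10, from 164835 bp for Flt1 to 31435 bp for Hif3a. The 5 without a pair inside measured 24894 bp or less. Length moves with this measure across the genome: 28.6% of the 7247 genes at least as long as Hif3a held a pair, and 6.12% of the shorter genes. When all genes were cut into 10 equal groups by length, the share was 45.3% in the longest group, to which Flt1 belongs, and 16.7% in the group of Egln1 and Hif1a. The part of gene length in which of the 10 genes held a pair was not tested.

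**Figure D3:**
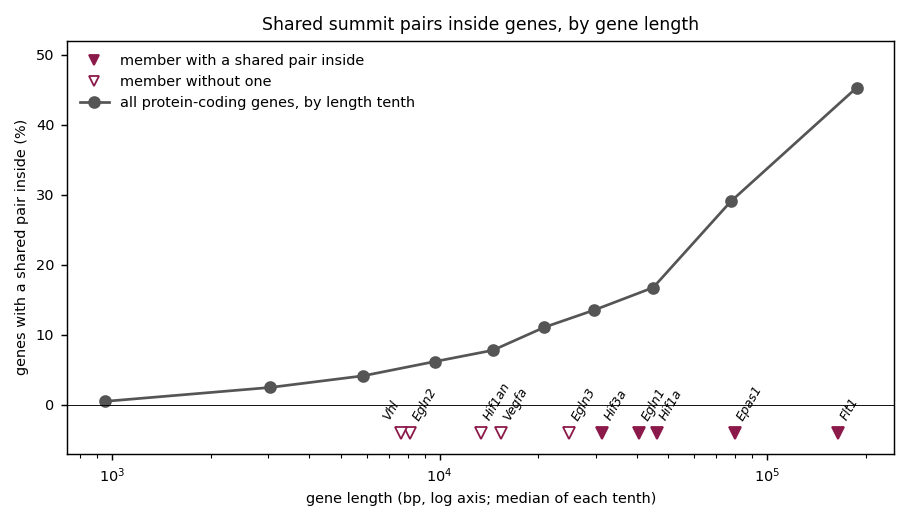
Share of protein-coding genes with a shared pair inside (y axis, %) against gene length (x axis, bp, log axis), for 10 equal groups of all genes by length. Triangles mark the lengths of the 10 genes, filled where the gene held a shared pair. The share climbs from 0.462% to 45.3%, and the filled triangles are the 5 longest genes.

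Pairs outside the genes were mostly nearer to something else. Of the 15 pairs, 7 had one of the 10 genes as the nearest protein-coding gene and 8 had a neighbour (Rab4b, Cyp2f2, Snapc1, Ppp5c or Irak2). Counted in this way, 5 of the 10 genes had a pair of their own within 50 kb, namely Egln1, Hif1a, Epas1, Hif3a and Flt1, against 23.9% of all genes. Within 10 kb, 6 of the 10 had a pair, Vhl joining these 5, against 26.3% of all genes. With summits shared within 50 bp this count was 3, and the share of all genes was not computed at that limit.

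The promoters of 9 of the 10 genes, in 11 windows, were searched on both strands over the 250 bases before each start for HNF4 cores (CAAAGTCCA and CAAAGGTCA), a forkhead core (TGTTTAC) and hypoxia response cores (ACGTG and GCGTG). Epas1 was not matched. None of the 11 windows held either HNF4 core or the forkhead core, which occurred in 0.386%, 0.429% and 3.19% of all 32619 windows. A hypoxia response core was present in 8 of 11 windows, against 38.8% of all windows. ACGTG was present in 5 of 11 windows, against 16.7% of all windows, and GCGTG in 6 of 11, against 28.3%. ACGTG occurred in windows of Egln1, Egln2, Egln3, Hif1a and Vegfa, and GCGTG in windows of Egln1, Egln2, Flt1, Hif3a and Vegfa. The Vegfa match lay at a second listed start inside the gene. The 11 windows were also richer in G and C, with a median of 59.6% against 52.4% of all windows, and the part of base composition in these counts was not tested. A match is a match of letters only.

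Other genes of the pathway were described from lists of 49 genes. Of these, 34 had a shared pair within 50 kb (69.4%), beside the 48.4% of all genes given above, and 21 had one within 10 kb (42.9%), beside 26.3%. The 49 genes had a median length of 23899 bp, against 17329 bp over all genes. By group, a pair within 50 kb was present at 7 of 11 genes for HIF partners and the VHL complex, 9 of 12 other VEGF ligands and receptors, and 18 of 26 HIF target genes. Within 10 kb the counts were 3, 7 and 11.

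**Figure D4:**
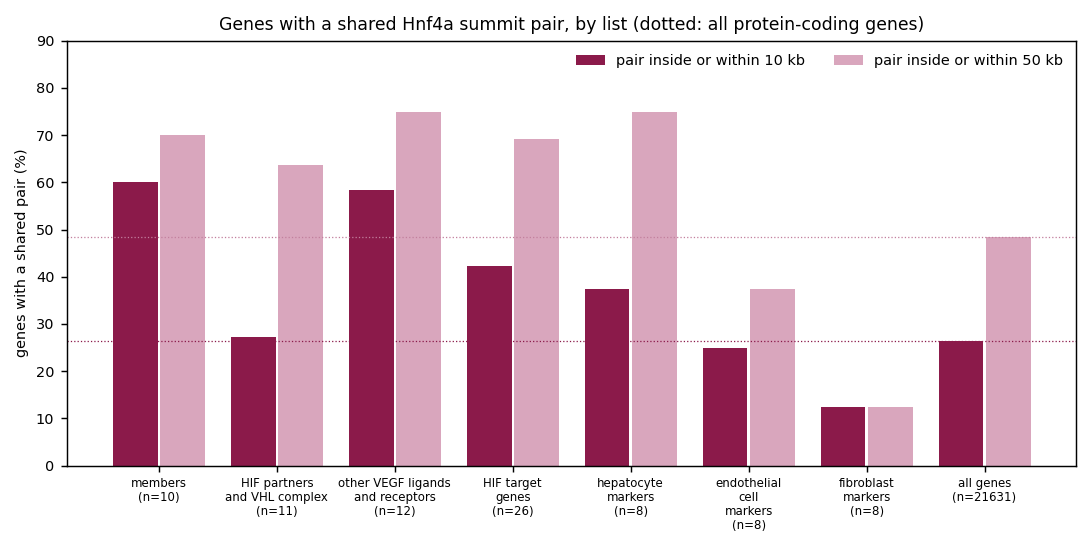
Share of genes (y axis, %) with a shared pair inside or within 10 kb (dark bars) or 50 kb (light bars) of the gene, for the 10 genes, 3 further pathway lists, 3 marker lists and all protein-coding genes (dotted lines). The 10 genes stand at 60% and 70%, against 26.3% and 48.4% of all genes, and the fibroblast markers are lowest at 12.5%. With summits shared within 50 bp, 3 genes in place of 6 had a pair within 10 kb. The share of all genes was not computed at that limit.

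Among HIF targets with a pair within 10 kb, Ldha, the lactate dehydrogenase gene, had the best-ranked one. It lay 8927 and 8925 bp away and scored 28.9 in replicate 1 and 26.6 in replicate 2. Angptl4, an inhibitor of lipoprotein lipase, had one 7283 and 7239 bp away (19.1 and 29.9). Hmox1, the haem oxygenase gene, had one 9704 bp away in replicate 1 and 9720 bp away in replicate 2 (10.6 and 19.04). Slc2a1, the glucose transporter GLUT1, held 2 pairs inside the gene, the better with 10.2 in replicate 1 and 9.86 in replicate 2. Among VEGF genes, Nrp1, a VEGF co-receptor, held 3 pairs inside the gene, the best with 18.8 in replicate 1 and 15.9 in replicate 2. The best pair of Vegfb, a further ligand, scored 20.7 and 15.8 but lay inside both Fkbp2 and LOC114841036, 2390 and 2347 bp from Vegfb.

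Pfkfb4, which controls the glycolytic signal fructose 2,6-bisphosphate, and the aldolase gene Aldoa had shared pairs in their promoters, as did Ddit4, a stress-induced inhibitor of mTOR signalling. The share of all promoters with a shared pair was not computed, so these genes are examples only. The Pfkfb4 pair lay 157 and 74 bases before the listed start but inside the gene span, since the annotated gene begins earlier. It scored 16.4 in replicate 1 and 11.1 in replicate 2. The Aldoa pair lay 61 and 106 bases before one of its starts and scored 8.42 in replicate 1 and 13.0 in replicate 2. The Ddit4 pair lay 198 and 175 bases before the start and scored 7.30 in replicate 1 and 11.1 in replicate 2, in a promoter with both ACGTG and GCGTG, and this gene was singled out after its values were seen. The promoters of Pfkfb4 and Aldoa, the better-ranked of the 3, are shown as examples of a shared pair at a listed start. They are from RefSeq, GRCm38.p6 (chr9:108991652-108991901, plus strand, and chr7:126799179-126799428, minus strand). Capitals mark GCGTG in the first and the reverse complement of ACGTG in the second.

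Pfkfb4 promoter: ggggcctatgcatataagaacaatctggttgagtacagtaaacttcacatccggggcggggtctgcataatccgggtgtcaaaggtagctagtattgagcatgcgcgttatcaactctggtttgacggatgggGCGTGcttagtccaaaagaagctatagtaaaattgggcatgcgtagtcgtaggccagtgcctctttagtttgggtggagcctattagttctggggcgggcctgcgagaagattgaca

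Aldoa promoter: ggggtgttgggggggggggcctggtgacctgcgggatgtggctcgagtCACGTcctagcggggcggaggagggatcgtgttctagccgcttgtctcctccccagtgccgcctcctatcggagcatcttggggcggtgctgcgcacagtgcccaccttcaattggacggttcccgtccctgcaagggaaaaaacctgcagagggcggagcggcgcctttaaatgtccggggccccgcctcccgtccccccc

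The erythropoietin gene Epo, singled out here for the background above after its values were seen, had no shared pair within 50 kb. It had 1 summit in each replicate, 17248 bp away with a score of 11.6 in replicate 1 and 22716 bp away with a score of 4.21 in replicate 2, 5468 bp apart, and both were nearer to other genes. Kdr, which encodes VEGF receptor 2 and was singled out in the same way, had no summit of replicate 1 and 1 of replicate 2, with a score of 5.29 at 11468 bp.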

How the data were processed

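Each deposited list holds 1-bp summits of peaks called per library, with the authors' −log10 q-value as score and a q threshold of 0.01 in the peak names. Per the submitters' processing notes, the build was mm10 and the tools were MACS2 (2.2.9.1), HISAT2 (2.0.5) and fastp (0.23.4). Use of a control library and removal of duplicates or problem regions are steps not given in the sources used here. Strong scores at repeated sequence could therefore be kept in the lists.

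Positions are counted from 1. Genes came from RefSeq GRCm38.p6, the assembly of mm10, matched by symbol (83 of 83 list entries, 3 by their newer symbols). Start sites, strands and promoter sequences came from the RefSeq promoter table. No exon positions were used, so exons and introns are not told apart. A pair was 2 mutually nearest summits within 100 bp, with both in the window. The members and lists were chosen with earlier results of these data known, and no test was run. The genes named are all 10 members, up to 8 other pathway genes with a pair within 10 kb in order of their worse rank, and the nearest neighbours of the pairs. Others are marked. Alternatives covered the sharing distance, window, score, nearest gene and single replicates. Python 3.11.15, numpy 2.4.6, pandas 2.3.3, scipy 1.17.1 and matplotlib 3.10.9 were used. Pairing and the finding of positions inside genes were tested on planted data. Window counts were checked against a direct count of replicate 1 summits. Replicate 1 held 21283 summits and replicate 2 held 24097. Their read depth is unknown.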

Additional observations from a re-analysis of the deposited data

How the results depend on the processing

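Of 67 recomputed values, 47 stayed within 1.5 times the reported count or, for the median score, within 1 SD between replicates. The number of the 10 genes with a shared pair ran from 5, when only pairs nearest to the gene itself counted, to 8, against 7 as reported. A single replicate cannot form a pair, so for single replicates any summit counted: 9 genes had one in each replicate. With summits shared within 50 bp, there were 9 pairs, a median score of 18.1, and 3 genes with a pair inside and 3 with one within 10 kb. These last 2 counts were added after the data were seen. A window of 10 kb left 7 pairs, 7 and 14 summits of replicates 1 and 2, and 21 pathway genes, while 25 kb left 22 replicate 2 summits and 100 kb took in 43 replicate 1 summits. Scores of 5 or more gave a median of 14.0. The best 10000 summits gave 9 pairs, 14 replicate 2 summits, a median of 18.1 and 22 pathway genes. Counting only summits nearest to the gene gave 7 pairs, 11 and 19 summits and a median of 16.0. The summits of the 15 pairs had a median score of 14.4 in replicate 1 and 12.3 in replicate 2, unpaired summits left out. Any summit of replicate 1 was present at 43 of the 49 pathway genes, beside 71% of all protein-coding genes. For replicate 2 it was 48 of the 49, beside 74.3%. The 21 pathway genes with a pair within 10 kb stand beside 26.3% of all genes. No share of all genes was computed for the 50 bp limit or the best 10000 summits. No paired analysis was possible because there is 1 group. With 2 libraries and no read depth, the spread between replicates rests on a single difference.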

Other observations

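Several pathway genes had strong pairs more than 10 kb away, and were picked for their scores after these were seen. Pgf, a VEGF family ligand, had a pair 26148 and 26137 bp away that scored 29.6 in replicate 1 and 24.7 in replicate 2, nearer to Eif2b2. Siah1a, a ubiquitin ligase gene known to act on EGLN proteins, was the nearest gene to a pair 22583 and 22604 bp away (14.1 and 24.9). Adm, the gene of the vessel-relaxing peptide adrenomedullin, was the nearest gene to a pair 19170 and 19126 bp away (19.4 and 16.5). Bhlhe40, a HIF-induced repressor gene, was the nearest gene to a pair 37554 and 37575 bp away (20.6 and 16.0).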
